A study of Homo sapiens with 8 samples.

Results

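A set of 10 genes in common use as readouts of the epithelial-mesenchymal transition (EMT) was followed across 8 two-colour microarrays of human cancer cell lines. They are CDH1, CDH2, VIM, ZEB1, ZEB2, SNAI1, SNAI2, TWIST1, FN1 and EPCAM, 10 of the 43317 genes named on the array, and they were taken by name from the array's own gene annotation. The lines were FaDu, from a hypopharyngeal squamous cell carcinoma, PC3, from a prostate cancer, and PANC-1, from a pancreatic cancer. FaDu cells received miR-99a-5p or miR-99a-3p, PC3 cells received miR-150-5p, miR-150-3p, miR-99a-3p or miR-100-3p, and PANC-1 cells received si-FOXQ1-1 or si-FOXQ1-2, small interfering RNAs against the transcription factor FOXQ1. Each condition had 1 array. On every array the transfected cells were labelled with Cy5 and mock cells of the same line with Cy3, and the labels describe the mock cells as not transfected. No array with a control miRNA or control siRNA was analysed here, so the transfection procedure and the introduced RNA cannot be told apart, and since the dyes were never swapped, dye and transfection cannot be told apart either. All 8 arrays lay on 1 slide with 1 scan time.

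EMT is the programme by which epithelial cells loosen their junctions and take on a motile, mesenchymal shape. E-cadherin (CDH1) and EpCAM (EPCAM) hold epithelial cells together, whereas N-cadherin (CDH2), the intermediate filament vimentin (VIM) and the matrix protein fibronectin (FN1) mark mesenchymal cells. The zinc-finger factors ZEB1, ZEB2, SNAI1 (Snail) and SNAI2 (Slug) and the basic helix-loop-helix factor TWIST1 repress epithelial genes, and carcinoma lines keep different mixtures of these states in culture. A miRNA acts mainly through its seed, the bases near its 5′ end that pair with messenger RNAs.

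The mature sequences of 3 of the transfected miRNAs were taken from RefSeq, since the arrays are named after them and the seed sets which messages they pair with. They are written 5′ to 3′ with the seed, bases 2 to 8, in capitals. MiR-99a-5p (chr21:16539101-16539122, plus strand) and miR-99a-3p (chr21:16539138-16539159, plus strand) are the arms of 1 precursor, and miR-100-3p lies at chr11:122152240-122152261 on the minus strand, all on build GRCh38.p14.
miR-99a-5p: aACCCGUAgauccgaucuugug
miR-99a-3p: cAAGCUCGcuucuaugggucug
miR-100-3p: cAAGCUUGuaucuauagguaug
Counted from the 5′ end, miR-100-3p differs from miR-99a-3p within the seed by the single substitution C7U, and outside the seed by C9U, U10A, G16A and C20A. The seed of miR-99a-5p has no such likeness to them. MiR-150-5p and miR-150-3p are named only.

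The 10 genes were measured with 17 probes of 60 bases. Those used for VIM, TWIST1 and FN1 lie in coding sequence and are shown because the level of each in the 3 lines rests on 1 probe. TWIST1 has a further coding probe, which was not well above background on any array in either channel. On build hg19 the VIM probe spans chr10:17278347-17279256 on the plus strand across an exon junction, the TWIST1 probe lies at chr7:19156462-19156521 on the minus strand in the part that codes for the helix-loop-helix domain, and the FN1 probe spans chr2:216288217-216288895 on the minus strand across an exon junction.
VIM: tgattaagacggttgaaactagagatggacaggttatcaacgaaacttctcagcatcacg
TWIST1: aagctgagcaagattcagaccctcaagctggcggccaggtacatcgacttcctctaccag
FN1: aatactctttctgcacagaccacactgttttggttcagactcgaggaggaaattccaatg
The CDH1 probe was spotted 10 times on each array and every other probe of the 10 genes once. No spot of these probes carried an outlier flag or was saturated.

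Between 15771 and 17629 genes per array were well above background in both channels, and their median log2 ratio was between 0.00 and 0.07. The mock channels fell into pairs, which were the FaDu arrays, the PC3 arrays of miR-150-5p and miR-150-3p, the PC3 arrays of miR-99a-3p and miR-100-3p, and the PANC-1 arrays. Within a pair the robust SD of the log2 difference over genes was 0.0658 to 0.0858, and repeated spots of 1 array gave 0.0716 to 0.0872 on the same scale, so the paired channels agreed within spot noise and were counted as 1 sample, called 1 mock RNA here. That leaves 1 mock RNA for FaDu, 2 for PC3 and 1 for PANC-1. The labels do not say whether 1 RNA was hybridised to both arrays of a pair, or whether mock cells came from separate cultures, so p-values between lines measure a spread that may be technical.

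The lines were checked with marker lists. All 7 squamous markers were well above background in the FaDu mock channels, against 2 in PC3 and 0 in PANC-1. Of 6 prostate markers 4 were above background in PC3, and KLK3 was in no line, but 4 were in FaDu and 2 in PANC-1 as well. Their summed log2 level was 15.3 to 15.64 in PC3, 9.06 to 9.21 in FaDu and 9.11 to 9.25 in PANC-1. The same 4 of 6 pancreatic duct markers were above background in all 3 lines, so this list did not mark PANC-1. Fibroblast markers above background numbered 1 of 7 in FaDu, 2 in PC3 and 3 in PANC-1 (COL1A1, PDGFRB and THY1), and leukocyte markers 2, 1 and 2 of the 4 with a probe.

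FaDu mock cells had high E-cadherin and EpCAM with vimentin near background, and PC3 and PANC-1 mock cells had high vimentin with lower, but measured, E-cadherin and EpCAM. Levels are log2 Cy3 signals scaled between arrays (Aquantile), and they may be compared between lines but not between genes. Lines were compared with limma over 21496 genes, first with all 8 mock channels and then with channels that share an RNA averaged. Of the 9 members tested, 9 passed between PC3 and FaDu, 8 between PANC-1 and FaDu and 8 between PANC-1 and PC3, at an adjusted p below 0.05. These lines differ in most genes, with 77.0%, 71.5% and 69.5% of all genes tested called in the same comparisons, so a high count among the members is not particular to them. With shared RNA averaged, 8 members passed in each comparison, against 61.0%, 51.6% and 48.5% of all genes. In that fit the single FaDu and PANC-1 samples are assumed to vary like those of PC3. The SEs of differences between lines below are from the averaged fit and belong to the averaged p-value. The adjusted p-value given first is from the fit of all 8 channels. That fit counts channels of a shared RNA as separate samples, so its p-values overstate the evidence.

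**Figure D1:**
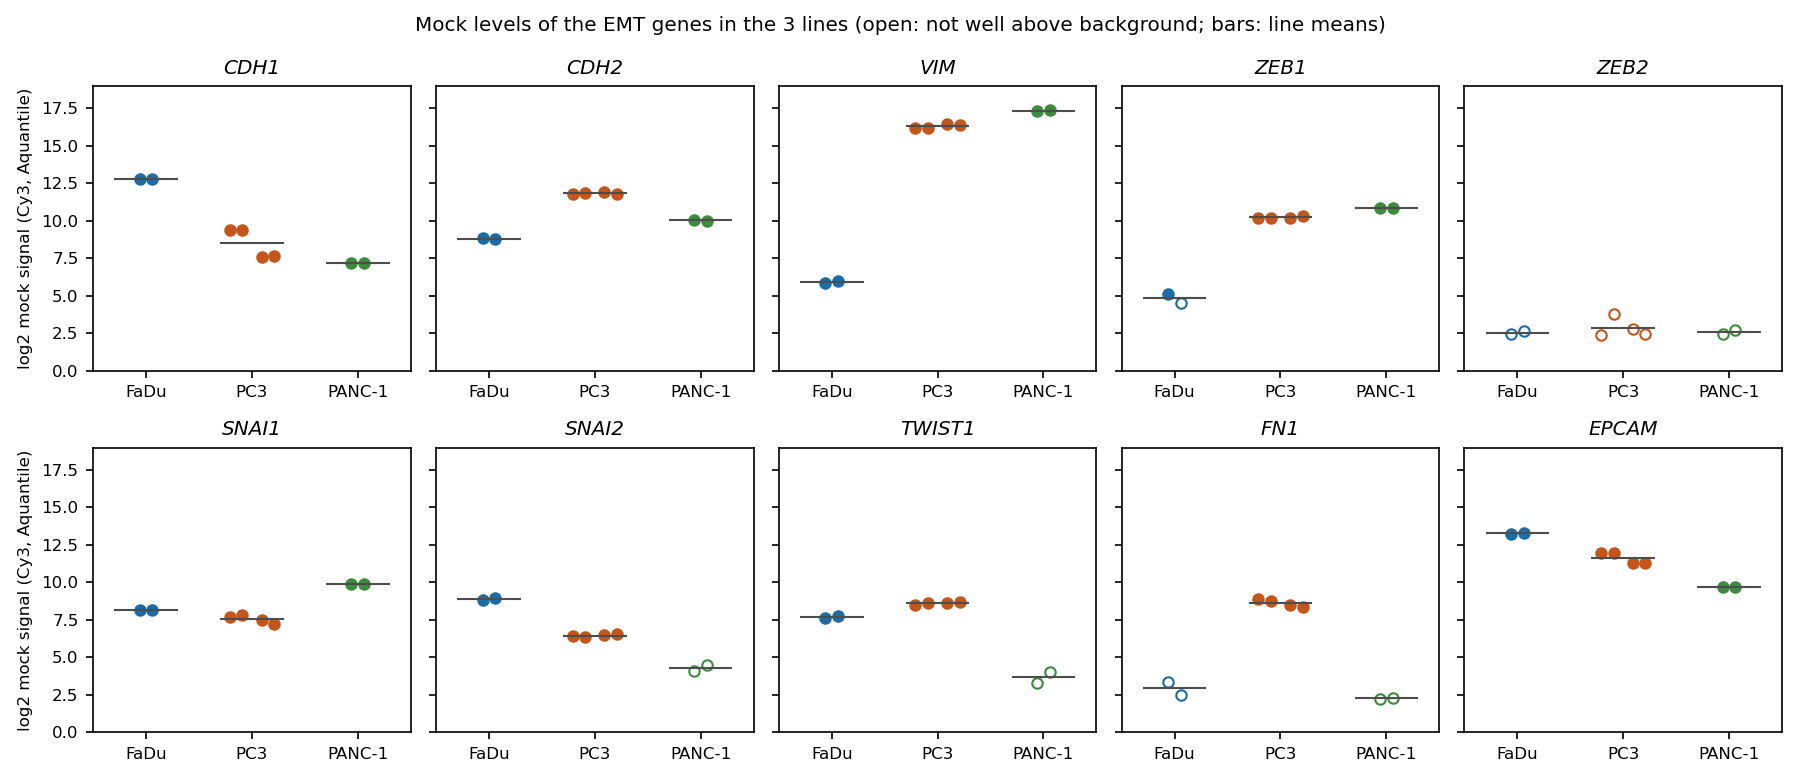
Log2 mock signal (Cy3, scaled between arrays) of each EMT gene in the 2 FaDu, 4 PC3 and 2 PANC-1 mock channels, with the line mean as a bar and open circles where the channel was not well above background. CDH1 and EPCAM are highest in FaDu, VIM and ZEB1 are high in PC3 and PANC-1 alone, FN1 is above background in PC3 alone, and the PC3 channels of CDH1 lie in separate pairs.

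Among the epithelial genes, CDH1 was at 12.77 and 12.82 in the FaDu mock channels. It was at 9.38, 9.40, 7.63 and 7.64 in PC3, and at 7.19 and 7.18 in PANC-1. FaDu lay above every PC3 and PANC-1 channel without overlap. The difference from FaDu was -4.28 in PC3, which is 19.4-fold (SE 0.81, limma adjusted p = 0.000419, or 0.0174 with shared RNA averaged). In PANC-1 it was -5.61, or 48.7-fold (SE 0.93, limma adjusted p = 0.000257, or 0.0157 averaged). PANC-1 and PC3 differed by -1.33 (limma adjusted p = 0.0828, or 0.252 averaged), which did not pass. It rested on which PC3 mock RNA was used, being -0.45 without that of the miR-150 arrays and -2.20 without the other, values with no test since each line then has 1 mock RNA. EPCAM, whose product is a homophilic adhesion molecule, was at 13.26 and 13.28 in FaDu, 11.96, 11.99, 11.28 and 11.33 in PC3, and 9.68 and 9.69 in PANC-1. The lines stood in the order FaDu, PC3, PANC-1 with no overlap. EPCAM was 3.1-fold lower in PC3 than in FaDu (-1.63, SE 0.33, limma adjusted p = 0.000451, averaged 0.0209) and 3.88-fold lower in PANC-1 than in PC3 (-1.96, SE 0.33, limma adjusted p = 0.000214, averaged 0.017).

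Among the mesenchymal genes, VIM had the widest span. It was at 5.88 and 5.99 in FaDu, between 16.23 and 16.47 in the 4 PC3 channels, and at 17.30 and 17.39 in PANC-1. On the scale of the deposited signals this was 43.5 and 79.6 units in FaDu against 72700 to 128000 in PC3. VIM was 1360-fold higher in PC3 than in FaDu (log2 difference 10.41, SE 0.17, limma adjusted p = 2.4e-09, averaged 0.000543). It was 2.01-fold higher in PANC-1 than in PC3 (1.01, SE 0.17, limma adjusted p = 7e-05, averaged 0.017). CDH2 was above background in all 3 lines, at 8.84 and 8.80 in FaDu, 11.80 to 11.90 in PC3, and 10.08 and 10.03 in PANC-1. PC3 was thus the highest and FaDu the lowest, 8.13-fold apart (3.02, SE 0.14, limma adjusted p = 2.64e-08, averaged 0.000987). FN1 was at 8.87, 8.78, 8.51 and 8.36 in PC3 and not well above background in either other line, where it was at 3.39 and 2.49 in FaDu and 2.26 and 2.27 in PANC-1. The PC3 level was at least 18.1-fold higher than in FaDu and at least 19.2-fold higher than in PANC-1, bounds set by the dimmest probe that was above background on each array (limma adjusted p = 1.32e-06 and 1.11e-06, averaged 0.000798 and 0.000836). PC3 therefore carried the highest N-cadherin and the only fibronectin signal above background, whereas PANC-1 carried the highest vimentin. As FN1 was read by 1 probe, its low signal does not show that FaDu and PANC-1 lack fibronectin message.

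The EMT factors did not share 1 order of the lines. ZEB1, the repressor of E-cadherin that pairs with miR-200 in a feedback loop, was at 10.20 to 10.31 in PC3 and 10.88 in both PANC-1 channels. In FaDu it was at 5.15 in 1 mock channel, well above background there, and at 4.55 in the other, where it was not. PC3 was above FaDu by 5.39 (SE 0.14, limma adjusted p = 1.54e-07, averaged 0.000554), a size that includes the FaDu channel not above background, and PANC-1 above PC3 by 0.64 (SE 0.14, limma adjusted p = 0.00757, averaged 0.0307). ZEB2 was not well above background on any array in either channel, by any of its 3 probes, and so has no measured level or ratio here. SNAI1 was highest in PANC-1, at 9.89 and 9.92, against 8.18 in both FaDu channels and 7.67, 7.80, 7.50 and 7.21 in PC3. PANC-1 exceeded PC3 by 2.36, or 5.13-fold (SE 0.22, limma adjusted p = 1.1e-05, averaged 0.00478), and FaDu by 1.72 (SE 0.26, limma adjusted p = 0.000114, averaged 0.0122). The lower SNAI1 of PC3 against FaDu (-0.64, SE 0.22, limma adjusted p = 0.00742) did not pass with shared RNA averaged (adjusted p = 0.0767).

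SNAI2 ran the other way. It was at 8.86 and 8.99 in FaDu, 6.39 to 6.58 in PC3, and 4.07 and 4.47 in PANC-1, where it was not well above background. PC3 was 5.53-fold below FaDu (-2.47, SE 0.15, limma adjusted p = 1.93e-06, averaged 0.00153), and PANC-1 was at least 22.8-fold below FaDu and at least 4.13-fold below PC3. TWIST1 was measured in FaDu at 7.66 and 7.77 and in PC3 at 8.48 to 8.67, a difference of 0.90 (SE 0.15, limma adjusted p = 0.00325, averaged 0.0123). In PANC-1 it was not well above background, at least 18.9-fold below PC3. The squamous line thus had more SNAI2 than the lines with high ZEB1, and PANC-1 had ZEB1 and SNAI1 with neither SNAI2 nor TWIST1 above background. FOXQ1, a forkhead factor and the target of the siRNAs, was at 12.42 and 12.44 in PANC-1, 10.35 and 10.41 in FaDu, and 8.17, 8.04, 6.83 and 6.83 in PC3.

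E-cadherin had the widest gap of the measured members between the 2 PC3 mock RNAs. The mock RNA of the miR-150-5p and miR-150-3p arrays averaged 9.39 and that of the miR-99a-3p and miR-100-3p arrays 7.64, a log2 difference of 1.75, or 3.37-fold. Of 15862 genes measured in all mock channels, 47 (0.296%) differed at least 2-fold between these RNAs. EPCAM differed in the same direction by 0.66, or 1.58-fold, and FOXQ1 by 1.28. CDH2 differed by -0.03, ZEB1 by -0.05, SNAI2 by -0.14, TWIST1 by -0.11, VIM by -0.22, SNAI1 by 0.38 and FN1 by 0.39. Under the other normalizations the CDH1 difference was 1.45 to 1.77 and the EPCAM difference 0.66 to 0.69. With 1 RNA of each kind these differences are descriptions with no test. The transfected level of CDH1 followed its mock, at 9.85 with miR-150-5p and 10.10 with miR-150-3p against 8.48 with miR-99a-3p and 7.15 with miR-100-3p. Each array's ratio was taken against its own mock. Against the mean of all 4 PC3 mock channels, a choice made after seeing the data, the CDH1 ratio of the 4 arrays became 1.34, 1.59, -0.03 and -1.36 in the same order.

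**Figure D2:**
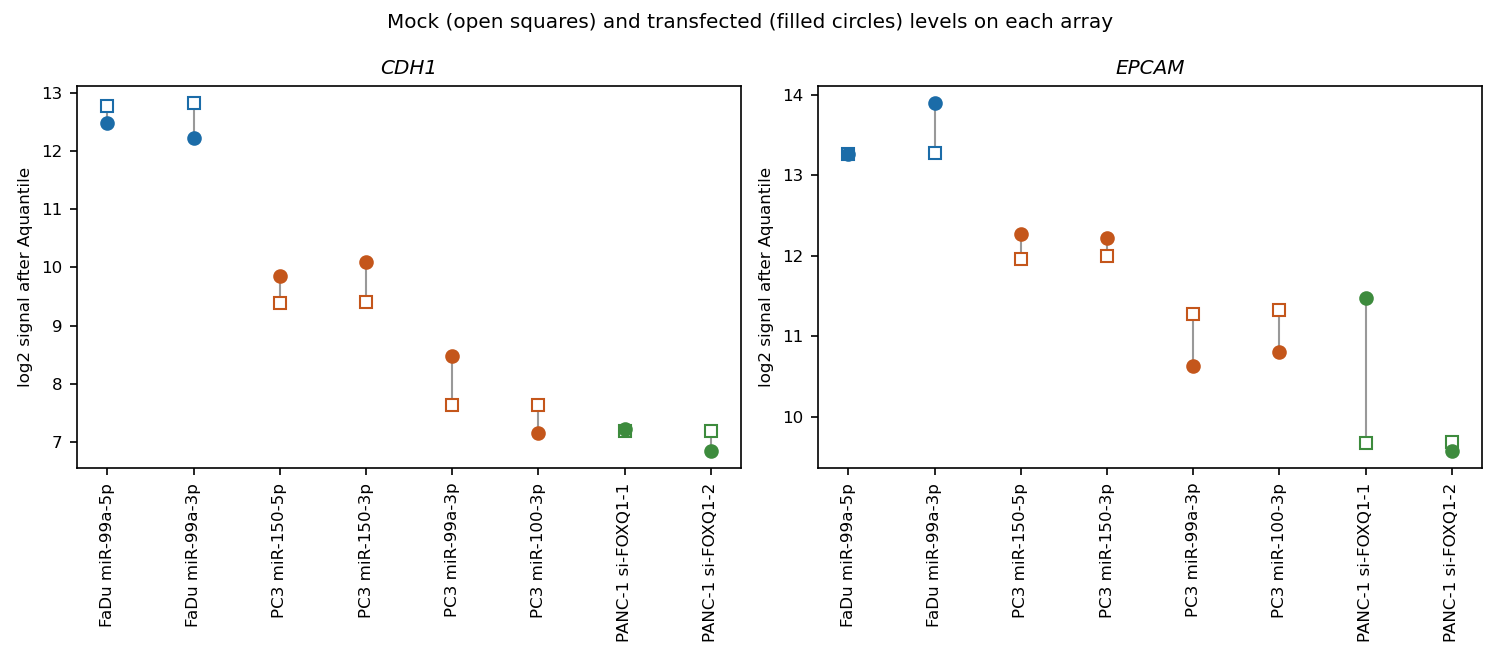
Log2 signal of CDH1 and EPCAM after scaling between arrays, with the mock channel of each array as an open square and the transfected channel as a filled circle, joined by a line (blue FaDu, orange PC3, green PANC-1; the axes do not start at 0). The PC3 mock channels of CDH1 lie at 9.38 and 9.40 for the miR-150 arrays and at 7.63 and 7.64 for the others, and EPCAM with si-FOXQ1-1 lies at 11.48 against a mock level of 9.68.

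The ratios of transfected over mock cells were read next. Of the 80 values, 10 genes on 8 arrays, 62 were well above background in both channels, 1 in Cy3 alone and 17 in neither. Of those 62, 45 were within 1.5-fold of the mock, and 3 reached 2-fold. These were VIM with miR-99a-5p in FaDu, SNAI1 with miR-150-3p in PC3 and EPCAM with si-FOXQ1-1 in PANC-1. Per array, 8, 7, 9, 9, 9, 9, 6 and 6 members were above background in at least 1 channel. Over all such genes, 0.851% were at least 2-fold higher and 4.86% lower with miR-99a-5p in FaDu, and 8.25% and 9.37% with miR-99a-3p in FaDu. In PC3 the shares higher and lower were 0.664% and 4.49% with miR-150-5p, 2.69% and 6.68% with miR-150-3p, 4.23% and 7.39% with miR-99a-3p, and 0.987% and 3.34% with miR-100-3p. In PANC-1 they were 0.905% and 3.31% with si-FOXQ1-1, and 0.412% and 3.29% with si-FOXQ1-2. With at most 1 member called on an array, these counts are too small to set the members apart from the other genes. The error given with each ratio below is the scanner's estimate for the spot, since no condition was repeated.

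**Figure D3:**
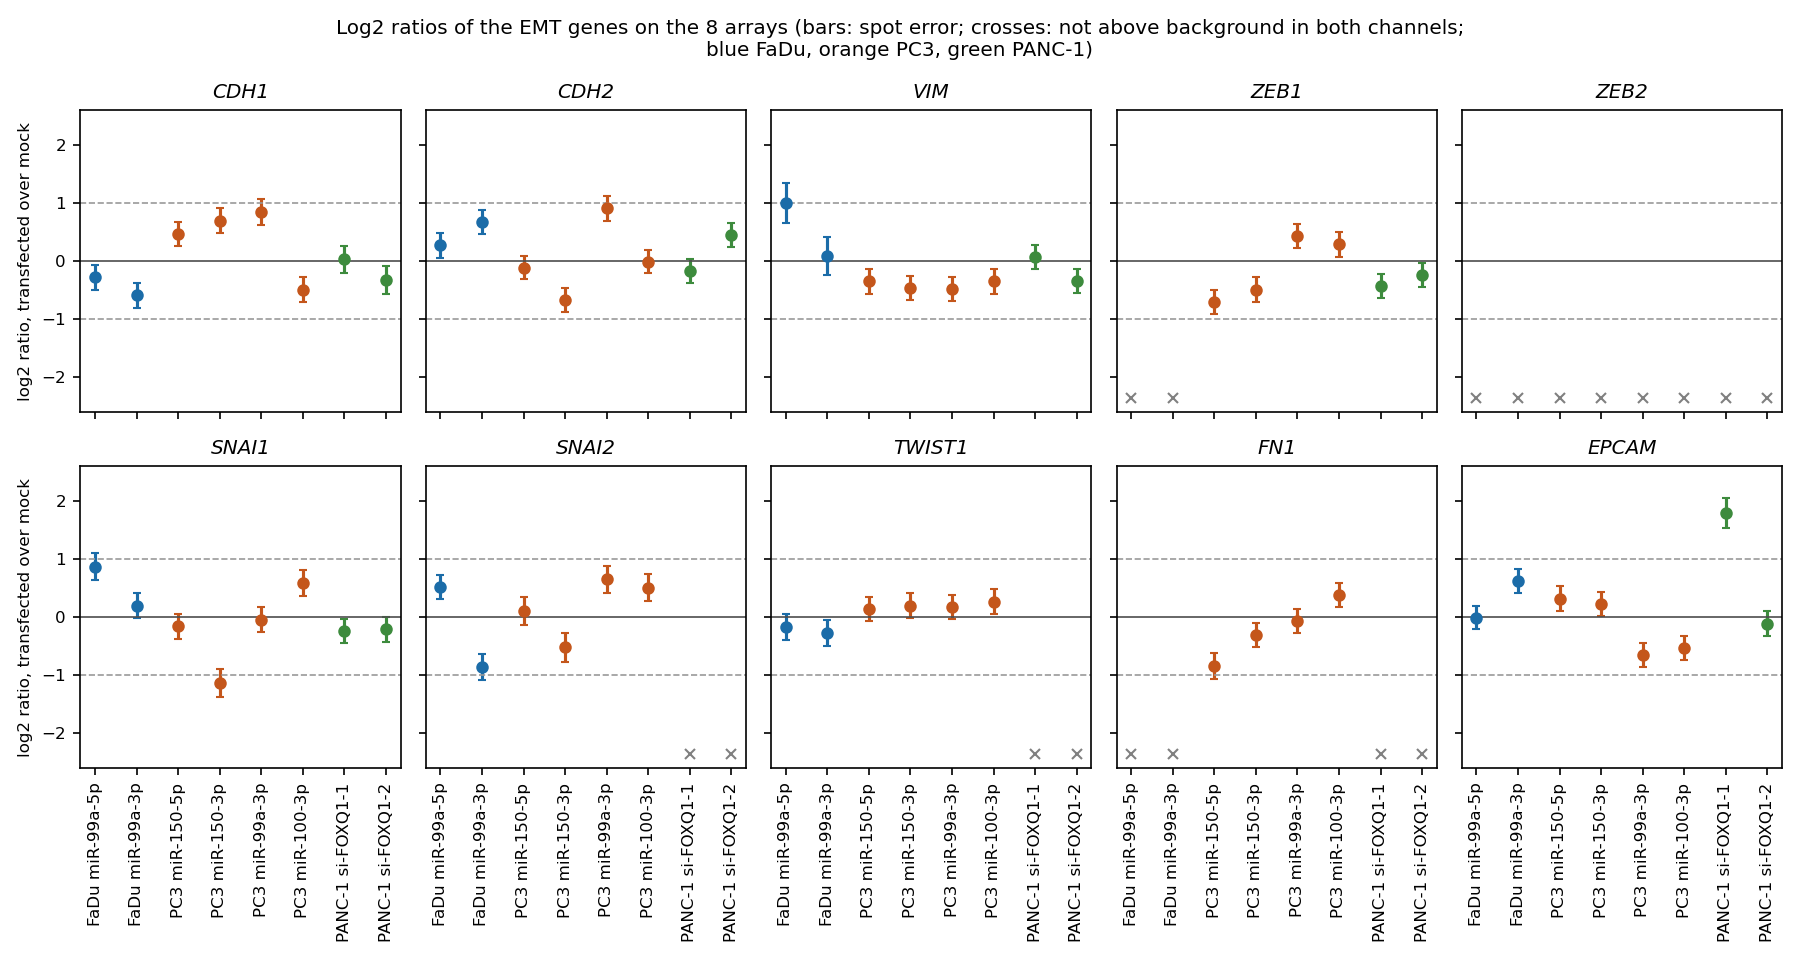
Log2 ratio of transfected over mock cells for each EMT gene on the 8 arrays, with the spot error as a bar, dashed lines at a 2-fold change, and crosses at the foot where the gene was not above background in both channels (blue FaDu, orange PC3, green PANC-1). EPCAM with si-FOXQ1-1 stands at 1.80, farther from 0 than any other value, and ZEB2 has no value.

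E-cadherin ratios were each a mean over 10 repeated spots, with an SD of 0.04 to 0.20 that measures spot noise alone. In PC3 these ratios depended on the mock RNA used, as given above. In PC3 the log2 ratio was 0.47 with miR-150-5p, 0.70 with miR-150-3p, 0.85 with miR-99a-3p and -0.49 with miR-100-3p, each with an error of 0.21 or 0.22. CDH1 was thus above its mock with 3 of the miRNAs and below it with miR-100-3p. In FaDu it was -0.28 with miR-99a-5p and -0.59 with miR-99a-3p. In PANC-1 it was 0.03 with si-FOXQ1-1 and -0.33 with si-FOXQ1-2. Against each array's own mock, the highest and lowest ratios, 0.85 and -0.59, came from the same miRNA, miR-99a-3p, in different lines. Against all mock channels of the line, the highest was 1.59 with miR-150-3p and the lowest -1.36 with miR-100-3p, both in PC3.

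EPCAM did not follow CDH1. Its log2 ratio was 0.32 and 0.23 with miR-150-5p and miR-150-3p, -0.65 with miR-99a-3p and -0.53 with miR-100-3p in PC3. In FaDu it was -0.01 with miR-99a-5p and 0.62 with miR-99a-3p (error 0.21). With miR-99a-3p the epithelial pair lay on opposite sides of the array's own mock in both lines. CDH1 was above and EPCAM below that mock in PC3, and the reverse held in FaDu. Against all PC3 mock channels CDH1 was at -0.03 and EPCAM at -1.01, so the opposite sides in PC3 depend on the mock RNA.

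N-cadherin was read by a pair of probes that did not always give 1 answer. By the brighter probe the FaDu ratio was 0.27 for the 5p arm of miR-99a and 0.68 for the 3p arm, whereas the dimmer probe gave -0.22 and -0.33. No direction is therefore given for CDH2 in FaDu. In PC3 with miR-99a-3p the probes gave 0.91 (error 0.22) and 0.94, so that N-cadherin was 1.88-fold above the mock by the brighter probe. In PC3 it was -0.67 and -0.24 with miR-150-3p, and -0.11 and -0.10 with miR-150-5p. In PANC-1 the values were -0.17 and -0.16 with si-FOXQ1-1, and 0.45 and 0.37 with si-FOXQ1-2. E-cadherin and N-cadherin, which EMT usually exchanges for each other, were both above the array's own mock in PC3 with miR-99a-3p, but CDH1 was at -0.03 against all PC3 mock channels.

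Vimentin was below the mock on all 4 PC3 arrays, at -0.35, -0.46, -0.48 and -0.35 with miR-150-5p, miR-150-3p, miR-99a-3p and miR-100-3p, each with an error of 0.21. With normexp background correction and loess in place of the deposited ratios, the values for miR-150-5p and miR-99a-3p were -0.05 and -0.25. In PANC-1 VIM was at 0.07 with si-FOXQ1-1 and -0.34 with si-FOXQ1-2. The ratio of 1.00 with miR-99a-5p in FaDu (error 0.34) rested on signals of 43.5 in the mock and 87.3 in the transfected cells, close to background. It was 0.40 with normexp, which ends the 2-fold call. Fibronectin was measurable in PC3 alone, where it was -0.84 (error 0.22) with miR-150-5p, -0.31 with miR-150-3p, -0.07 with miR-99a-3p and 0.38 with miR-100-3p.

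Among the factors, SNAI1 had the 2-fold value, -1.13 (error 0.24) with miR-150-3p in PC3, from a signal of 278 in the mock and 128 in the transfected cells. It was -0.71 with normexp and loess and -0.87 against all PC3 mock channels, so the 2-fold call depends on both choices. On the other PC3 arrays SNAI1 was -0.16 with miR-150-5p, -0.04 with miR-99a-3p and 0.59 with miR-100-3p, and in FaDu it was 0.87 with miR-99a-5p and 0.20 with miR-99a-3p. SNAI2, also a Snail-family repressor, was 0.11, -0.52, 0.65 and 0.51 in PC3 with miR-150-5p, miR-150-3p, miR-99a-3p and miR-100-3p. In FaDu, where its mock level was highest, SNAI2 was 0.52 with miR-99a-5p and -0.86 (error 0.22) with miR-99a-3p. ZEB1 was -0.70 and -0.49 with miR-150-5p and miR-150-3p in PC3, and 0.43 and 0.29 with miR-99a-3p and miR-100-3p. Its dimmer probe gave -0.15, -0.40, 0.14 and 0.38, the same sign on each of these arrays. In PANC-1 ZEB1 was -0.43 with si-FOXQ1-1 and -0.24 with si-FOXQ1-2 by the brighter probe, but 0.04 and -0.06 by the dimmer one, so no direction is given there. TWIST1 varied least of the members, from -0.27 to 0.27 on the 6 arrays where it was above background.

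MiR-99a-3p was the 1 agent used in both FaDu and PC3. Of the 7 members measured in both, CDH1 was -0.59 in FaDu and 0.85 in PC3, SNAI2 was -0.86 and 0.65, and EPCAM was 0.62 and -0.65, each on opposite sides of its mock by more than the spot error. VIM was 0.09 and -0.48, SNAI1 was 0.20 and -0.04, and TWIST1 was -0.27 and 0.18. CDH2 by its brighter probe was 0.68 and 0.91. Against the mean of all PC3 mock channels the PC3 value of CDH1 was -0.03, so that its opposite sides depend on the mock RNA, and that of EPCAM was -1.01. These differences between the lines were not tested, since each has 1 array.

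In PC3 miR-99a-3p and miR-100-3p can be set side by side, because their mock channels agree within spot noise and their seeds, printed above, differ by C7U alone. CDH1 was 0.85 with the first and -0.49 with the second, a gap of 1.34, and CDH2 was 0.91 and -0.01. SNAI1 was -0.04 and 0.59, and FN1 -0.07 and 0.38. Part of these gaps lay in the mock channels, which differed by 0.28 in SNAI1 and 0.14 in FN1. With normexp and loess SNAI1 was -0.08 and 0.36. EPCAM, VIM, ZEB1, SNAI2 and TWIST1 differed between these arrays by 0.14 or less, which is within the spot error. None of these gaps was tested. As the mock was counted as shared, likeness between these columns is partly built in and is not counted as a result. The same holds for the miR-150-5p and miR-150-3p arrays. There SNAI1 was -0.16 and -1.13, SNAI2 0.11 and -0.52, and FN1 -0.84 and -0.31, whereas CDH1, EPCAM, VIM, ZEB1 and TWIST1 differed between the arms by 0.23 or less. CDH2 was -0.11 and -0.67 by its brighter probe and -0.10 and -0.24 by the dimmer one, so the size of its gap depends on the probe.

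FOXQ1 was below the mock with both siRNAs. It had a log2 ratio of -2.16 (error 0.29) with si-FOXQ1-1 and -2.12 (error 0.28) with si-FOXQ1-2, that is, 4.47-fold and 4.36-fold below the mock. EPCAM was at 1.80 (error 0.26) with si-FOXQ1-1, from a signal of 723 in the mock to 2520 in the transfected cells. With si-FOXQ1-2 it was at -0.11 (error 0.21), from 673 to 621. The siRNAs thus differed by 1.91 in EPCAM and by 0.04 in FOXQ1, and this difference was not tested, with 1 array each. The next widest gap was that of CDH2, -0.17 and 0.45, followed by VIM, 0.07 and -0.34. The mean of both arrays was compared with 0 by limma over 18620 genes. The siRNAs were taken as samples of 1 knockdown, so each SE mixes differences between the siRNAs with array noise. Their mock channels were counted as 1 RNA, which the fit does not allow for. No gene passed an adjusted p of 0.05 (0.0% of all genes), with 1902 genes at an unadjusted p below 0.05, and FOXQ1 itself had an adjusted p of 0.487. The fit of all 8 arrays with a mean for each line called 4 genes, and neither FOXQ1 (adjusted p = 0.485) nor a member was among them. The spread in that fit also holds differences between the agents used within a line. In the first fit EPCAM had a mean of 0.84 (SE 0.54, limma adjusted p = 0.587), ZEB1 -0.33 (SE 0.12, adjusted p = 0.503), SNAI1 -0.23 (adjusted p = 0.531), CDH1 -0.15 (adjusted p = 0.697), VIM -0.14 (adjusted p = 0.739) and CDH2 0.14 (adjusted p = 0.795). As FOXQ1 did not pass at over 4-fold, this test cannot show that a member was unaffected.

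Related genes were taken as 5 lists: 32 epithelial junction, splicing and regulator genes, 30 mesenchymal genes, 19 other EMT factors and corepressors, 8 genes of the cadherin-catenin complex and 15 of TGF-beta signalling. Values past 2-fold in either direction numbered 7 higher and 5 lower over the 8 arrays for the epithelial list, 16 and 12 for the mesenchymal list, 7 and 4 for the factors and 10 and 7 for TGF-beta signalling. These are 5.45% of 220 values above background, 14.4% of 195, 8.8% of 125 and 16% of 106, beside 7.7% of the values of all genes. With normexp and loess the counts in both directions together were 6, 11, 5 and 4. No share of all genes is given for that setting, so the fall cannot be read as particular to the lists. In the cadherin-catenin complex, which anchors E-cadherin to actin, 0 of 60 values reached 2-fold, beside the same 7.7% of all genes. This gap was not tested. The 60 values repeat the same 8 genes on arrays counted as sharing mock RNAs, so they are not independent.

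**Figure D4:**
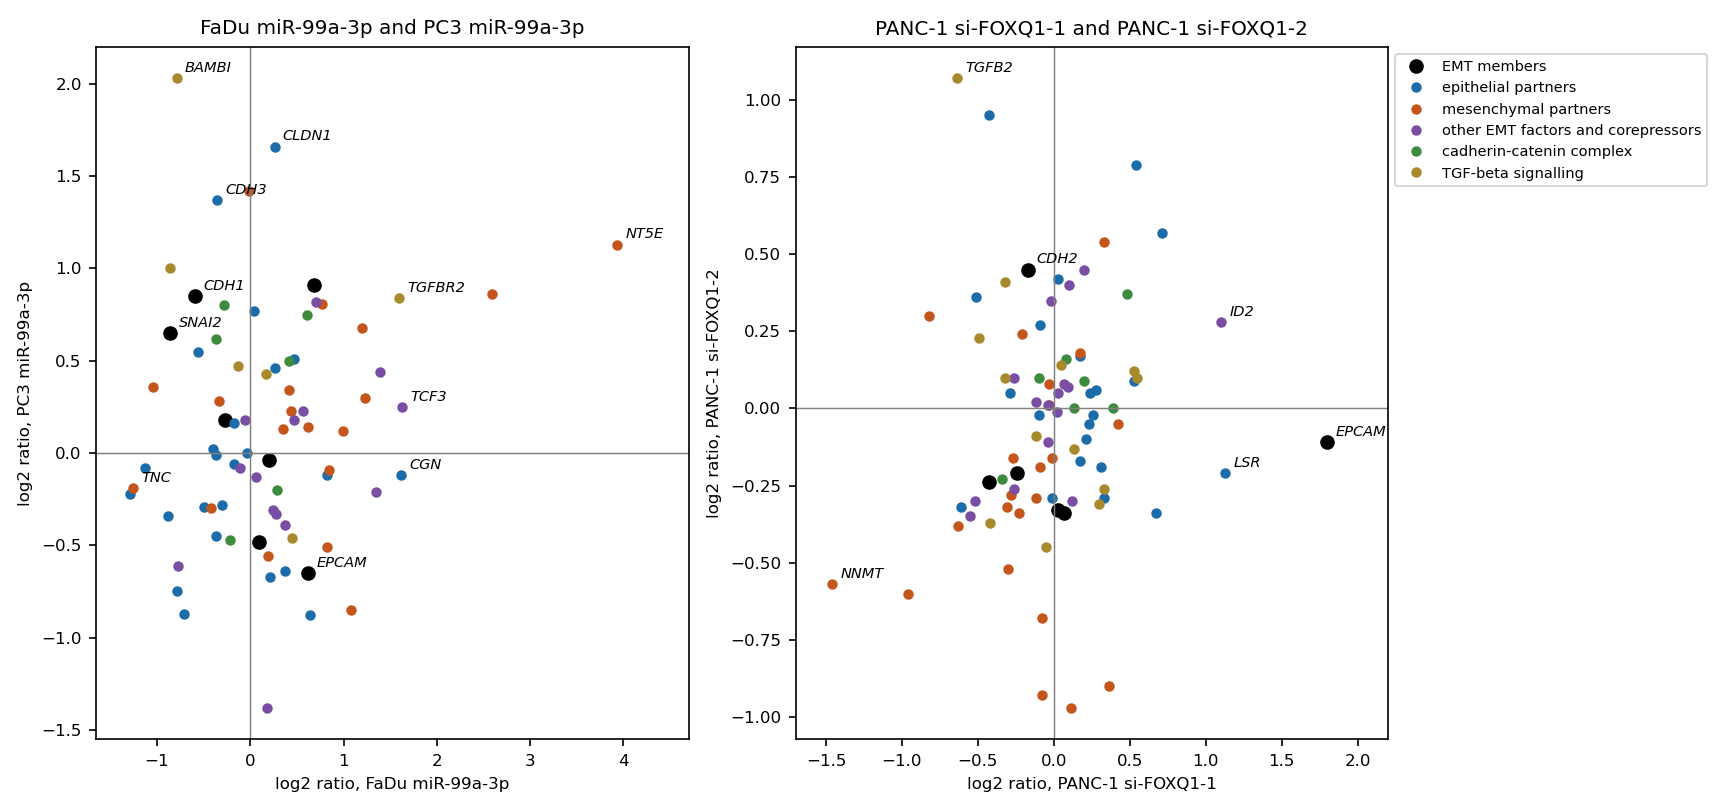
Log2 ratios of the EMT genes (black) and the related lists (colours), for genes above background in both channels of both arrays, with miR-99a-3p in FaDu against PC3 on the left (76 genes) and si-FOXQ1-1 against si-FOXQ1-2 on the right (86 genes, arrays counted as sharing a mock RNA). CDH1, SNAI2 and EPCAM lie on opposite sides of 0 in the lines on the left, and EPCAM lies at 1.80 and -0.11 on the right.

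FaDu with miR-99a-3p had the most of these. Of 21 mesenchymal genes above background, 7 were at least 2-fold higher and 2 lower, and the list's median was 0.77 beside -0.03 for all genes and 8.25% of genes higher. NT5E, the ecto-enzyme CD73, was at 3.93 (15.3-fold) and ACTA2, smooth muscle actin, at 2.59, whereas the matrix gene TNC was at -1.26 and CTGF at -1.04. Of 17 other factors, 5 were higher and 1 lower, among them TCF3 at 1.63 and TCF4 at 1.39, both E-box factors that partner with TWIST1. Of 32 epithelial genes, 1 was higher and 3 lower, which is near the 9.37% of all genes lower on that array. ESRP1, which sets epithelial splicing, was at -2.66 and the polarity gene CRB3 at -1.29, and CGN, cingulin of tight junctions, was at 1.62. TGFBR2, the TGF-beta type 2 receptor, was at 1.59. VIM (0.09) and ZEB1 (not above background) gave no such values on that array.

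In PC3 with miR-99a-3p, P-cadherin (CDH3) was at 1.37 and the claudin CLDN1 at 1.66, but the epithelial list had a median of -0.08 beside 0.02 for all genes, with CLDN4 at -0.88 and SPINT2 at -0.87, both picked after their values were seen. Of 26 mesenchymal genes 5 were at least 2-fold higher and 0 lower, beside 4.23% of all genes higher, with TGFBI at 1.42 and SPARC at 1.37. BAMBI, a decoy receptor of TGF-beta signalling, was at 2.03, SMAD7 at 1.01 and the helix-loop-helix inhibitor ID1 at -1.38. The catenin list had a median of 0.55 beside 0.02 for all genes. BAMBI was also at 1.27 with miR-150-5p and 1.5 with miR-150-3p. With miR-150-3p, where SNAI1 was lowest, TWIST2 was at -1.60, the corepressor CTBP1 at -1.18, CDH11 and FSTL1 both at -1.12, SPINT1 at -1.12, SPARC at 1.12, EHF at 1.10, CGN at 1.05 and TGFB2 at 1.01. With miR-150-5p, TNC was at -1.63 and TGFB3 at -1.13. With miR-100-3p, TGFB2 was at 1.00. These ratios are against each array's own mock, and the PC3 mock RNAs differed in some of these genes. On the miR-150-5p and miR-99a-3p arrays the mock level was 9.35 and 8.28 for CDH3 and 6.53 and 4.96 for TGFBI. It was 10.32 and 11.38 for SPARC and 9.32 and 8.23 for CGN. BAMBI, at 10.42 and 10.47, and CLDN1, at 7.38 and 7.13, lay closer. Ratios against all PC3 mock channels are not given for these genes.

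With the FOXQ1 siRNAs, 5 of 85 related genes (5.88%) reached 2-fold with si-FOXQ1-1 and 3 of 85 (3.53%) with si-FOXQ1-2, near the 4.21% and 3.7% of all genes in either direction. With si-FOXQ1-1, LSR, a protein of tricellular junctions, was at 1.13 beside EPCAM at 1.80, and it was at -0.21 with si-FOXQ1-2. The metabolic gene NNMT was at -1.46 and -0.57, and ID2 at 1.10 and 0.28, in the same order. With si-FOXQ1-2, TGFB2 was at 1.07, and at -0.64 with si-FOXQ1-1. The epithelial list had a median of 0.23 with si-FOXQ1-1 and 0.02 with si-FOXQ1-2, beside -0.02 and -0.01 for all genes. In FaDu with miR-99a-5p, ID2 was at 1.15 and SMAD2 at -1.30.

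CDH1, CDH2, VIM, SNAI1 and EPCAM were above background in both channels of all 8 arrays, and 13243 genes were available to compare with their ratios. As several arrays were counted as sharing a mock RNA, the correlations are descriptions over 8 points. The genes most like CDH1 were MPC1, LINC00504 and lnc-EIF2AK4-4, each with a Pearson r of 0.98, and MPC1, a mitochondrial pyruvate carrier subunit, was at 0.59, 0.81 and 0.93 on the arrays where CDH1 was highest. Those most like CDH2 by its brighter probe were TBX19 (0.96), PACS1 (0.95) and an unnamed transcript (0.95). For VIM they were RPLP2, LY6G6E and an unnamed transcript (0.95 each), for SNAI1 ACTBL2 (0.96), HK1 (0.95) and HECTD2-AS1 (0.94), and for EPCAM MAPK13 (0.95), UEVLD (0.94) and AURKAPS1 (0.92). No member was among the genes most like another member.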

How the data were processed

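Total RNA of mock (Cy3) and transfected (Cy5) cells was hybridised to Agilent two-colour arrays. Per the file headers the authors used Feature Extraction 10.7.3.1, which subtracted background, normalized both dyes array by array and wrote intensities per channel and log10 ratios of Cy5 over Cy3. The log10 ratio table deposited for the whole series matched the scanner ratios within 0.001 on the log2 scale at 100% of spots.

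Log10 ratios were put on the log2 scale. Control and flagged spots were left out, spots of a probe averaged, and the brightest probe represented a gene. A value was called at an absolute log2 ratio of 1 in a gene well above background in at least 1 channel. Mock intensities were scaled between arrays (Aquantile) and lines compared with limma 3.58.1 (R 4.3.3) and Benjamini-Hochberg adjustment over all genes well above background in every mock channel of at least 1 line. The siRNA mean was tested over genes above background on both arrays. Steps were tested on simulated data. Arrays give no read depth, and their number limits the precision. Groups came from the sample labels.

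The members and lists were chosen with earlier results of these data known. The genes named are the members, FOXQ1, up to 2 genes per direction, list and array that were past 2-fold in both-channel signal, and the 3 genes most like each member, with some items not reported here. Alternatives were normexp (offset 50) with loess, the series table, other filters, probes, thresholds and centring, other scalings of Cy3, and leaving out each mock channel or siRNA array.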

Additional observations from a re-analysis of the deposited data

Results flagged for a closer look

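With miR-99a-3p, 3 members lay on opposite sides of their own array's mock in FaDu and PC3. The log2 ratio in PC3 minus that in FaDu was 1.44 for CDH1, 1.52 for SNAI2 and -1.27 for EPCAM. Against the mean of all mock channels of the line they were 0.53, 1.47 and -1.63, and CDH1 in PC3 was then at -0.03. These differences were not tested, since each line has 1 array.

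A pair of dimmer probes with the name TWIST1 in the array's annotation is assigned there to a noncoding transcript, and neither was used for the gene. In PC3, 1 of them was at 1.39 with miR-99a-3p, above background in both channels, and at 1.48 with miR-150-3p, where the mock was not above background. The other was at 2.25 with miR-150-3p, likewise with a dim mock. With miR-150-5p both were below the mock, at -1.77 and -1.08, with the transfected channel dim. The coding TWIST1 probe was at 0.18, 0.20 and 0.14 on the same 3 arrays (miR-99a-3p, miR-150-3p and miR-150-5p).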

How the results depend on the processing

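The 3 member values past 2-fold became 1 with normexp and loess (EPCAM with si-FOXQ1-1, 1.64), 6 with the second brightest probe (for TWIST1 a probe of a noncoding transcript), 17 at 1.5-fold and 5 against all mock channels of the line, an alternative chosen after seeing the data. Values past 2-fold in the lists were 12, 28, 11, 0 and 17 for the epithelial, mesenchymal, factor, cadherin-catenin and TGF-beta lists. They were 6, 11, 5 and 4 with normexp for all but the cadherin-catenin list. With both channels above background the mesenchymal list had 16 and the TGF-beta list 11. With no filter the epithelial list had 19 and the cadherin-catenin list 1. At 1.5-fold the first 4 lists had 37, 67, 21 and 4. No share of all genes is given for these alternative settings. The other 33 of 45 list counts stayed within 1.5 times. Between mock lines all 51 alternative counts of members stayed within 1.5 times, and 10 of 510 single differences changed side of the threshold, 3 of these in fits that left each line with 1 mock RNA and so say nothing on the call. Among the others CDH1 in PANC-1 against PC3 passed with normexp (-1.05, adjusted p = 0.0422) and without PC3 mock channel 3 or 4, both of the miR-99a-3p and miR-100-3p arrays (-1.62, adjusted p = 0.0412 and 0.0417). Its value was -0.45 without the mock RNA of the miR-150 arrays and -2.20 without the other PC3 mock RNA. FN1, dim in both lines, passed in PANC-1 against FaDu without FaDu mock channel 2 (adjusted p = 0.00523) and with Cy3 scaled to its 75th percentile (adjusted p = 0.0298). Under the FOXQ1 siRNAs the count over all genes was 1 with normexp (FOXQ1, -2.16, adjusted p = 0.00298) and 4 with all 8 arrays. No alternative called a member under the siRNAs. No paired analysis was possible because no condition had more than 1 array. The causes were not tested.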
